A study of Mus musculus with 16 samples.

Results

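The genes described here encode the nuclear subunits of the mitochondrial respiratory chain and the ATP synthase. They were taken by gene name from the array: Ndufa, Ndufb, Ndufc, Ndufs or Ndufv followed by a digit, or names that start with Uqcr, Cox4, Cox5, Cox6, Cox7, Cox8 or Atp5. This gave 81 genes on 111 probes, out of 31093 gene names on 39429 probes. The rule reads names and no measured value. The arrays were 16 one-color Agilent mouse arrays of RNA from sorted bone marrow progenitors of female C57/Bl6 mice, with 4 samples in each of 4 groups. Macrophage-dendritic cell progenitors (MDPs) and common dendritic cell progenitors (CDPs) came either from age-matched tumor-free mice (Normal) or from mice with end-stage orthotopic mammary tumors grown to 1.5 cm from PyMT-B6, a single C57/Bl6 cell line derived from the MMTV-PyMT mammary tumor model (PyMT). Each sample pooled a pair of mice, and no group carried a genetic change or a drug treatment. Because each sample is RNA of a sorted population, a change in RNA per cell and a change in the mix of cells within the gate cannot be told apart.

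The respiratory chain moves electrons from NADH and succinate to oxygen in the inner mitochondrial membrane and uses the energy to pump protons. Complex I takes electrons from NADH, complex III passes them from ubiquinol to cytochrome c, complex IV hands them to oxygen, and complex V, the ATP synthase, uses the proton gradient to make ATP. Most subunits are encoded in the nucleus, and their promoters are known targets of the factors NRF1, GABP (an ETS factor) and YY1. Hematopoietic stem cells rely on glycolysis to a large extent, and respiration gains weight as progenitors leave quiescence.

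By complex the genes were 37 of complex I (Ndufa, Ndufb, Ndufc, Ndufs, Ndufv), 8 of complex III (Uqcr), 18 of complex IV (Cox) and 18 carrying an Atp5 name. Complexes were assigned by name, so complex I here includes Ndufa4, which is bound to complex IV, and its relative Ndufa4l2. The Atp5 names include 3 that are not subunits: Atp5c1-ps is a pseudogene, and Atp5s (now Dmac2l) and Atp5sl (now Dmac2) are related proteins that are not part of the ATP synthase. Of the 81 genes, 79 were tested, with 109 probes, and 77 of them were well above background on all 16 arrays. Cox8c and Cox7b2, which are testis isoforms, were not well above background on any array and were not tested. For a gene with several probes, the probe with the highest mean was used. The position printed for that probe lay on the chromosome of its gene for 64 genes, on another chromosome for 9 (Ndufb11, Ndufs5, Cox7c, Atp5c1, Atp5g2, Atp5j2, Atp5k, Atp5l and Atp5o) and was not given or not matched for 8. Many of these genes have processed pseudogene copies elsewhere in the genome, so the signal of those 9 is uncertain as to its source.

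The proximal promoters of the genes are shown first, because this set is known for shared promoter elements. Of the 81 genes, 66 were found in the RefSeq promoter table (GRCm38.p6), with 72 start sites. In the 250 bases before the start, searched on both strands, the NRF1 motif (GCGC, then A and any base, then GCGC) was present in 12 windows, 16.7% of them, against 3.74% of all 32851 promoter windows in the table. The ETS motif CCGGAAG was present in 15.3% of the windows against 6.91% of all, and the YY1 motif (AAGATGG, then CGG) in 2.78% against 0.301%. The YY1 share rests on 2 windows, those of Atp5j and of Atp5sl, which is not a subunit. At least 1 of the 3 motifs stood in 22 windows, 30.6% of them, against 10.3% of all. The 6 stretches below carry such a match upstream of genes described further on, with the match in capitals and each line read 5′ to 3′ on the strand of the gene. The first 2 hold the NRF1 motif and the other 4 the ETS motif, in either direction.
Ndufa8, chr2:36049339-36049398, minus strand: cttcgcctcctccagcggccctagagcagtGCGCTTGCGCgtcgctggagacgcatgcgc
Ndufa11, chr17:56717677-56717736, plus strand: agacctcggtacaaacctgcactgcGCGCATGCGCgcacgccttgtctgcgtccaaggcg
Ndufb6, chr4:40279612-40279671, minus strand: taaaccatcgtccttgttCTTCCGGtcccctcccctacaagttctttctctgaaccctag
Cox6b1, chr7:30626115-30626174, minus strand: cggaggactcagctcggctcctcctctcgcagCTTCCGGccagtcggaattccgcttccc
Uqcr11, chr10:80406854-80406913, minus strand: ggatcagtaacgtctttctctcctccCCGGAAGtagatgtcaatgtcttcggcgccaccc
Atp5h, chr11:115419924-115419983, minus strand: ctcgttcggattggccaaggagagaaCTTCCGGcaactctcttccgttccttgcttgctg
A match describes the letters of the window and is neither a measured binding site nor a cause of the values below.

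Levels are given as log2 of the processed spot signal minus the 75th percentile of the same array, so that a level of 0 is that percentile. Differences between groups are on the same log2 scale, with limma's standard error (SE) and a Benjamini-Hochberg false discovery rate (FDR) over all 27433 probes tested. A gene was called changed where the FDR was under 0.05 and the fold above 1.5. The arrays were printed on 4 slides. Slides 2 and 3 held 1 array of each group, slide 1 held no CDPs of tumor-bearing mice and slide 4 no MDPs of tumor-bearing mice, so values with slide as a block are given beside the tumor comparisons. Between 59.0% and 71.6% of probes were well above background on an array, with slide medians from 62.2% on slide 1 to 71.3% on slide 4, and 0 spots were saturated. The 4 progenitor markers Csf1r, Flt3, Kit and Cx3cr1 were well above background on all arrays. Kit, the stem cell factor receptor that is high on MDPs and low on CDPs by their definition, was lower in CDPs than in MDPs of tumor-free mice by −2.59 (SE 0.20, limma FDR 3.8e-06).

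Over all tested subunit genes, the median level per array was higher in progenitors of tumor-bearing mice for both populations. In CDPs of tumor-free mice the medians of replicates 2 to 5 were 3.18, 3.10, 3.22 and 3.08, and in CDPs of tumor-bearing mice 3.48, 3.45, 3.54 and 3.21. In MDPs of tumor-free mice they were 3.25, 3.15, 3.33 and 3.16, and in MDPs of tumor-bearing mice 3.27, 3.58, 3.27 and 3.59. The CDP groups overlapped by 1 array of tumor-bearing mice, at 3.21 just below the highest tumor-free array, and in MDPs 2 of the 4 arrays of tumor-bearing mice lay within the tumor-free range. The means without and with tumor were 3.14 ± 0.07 and 3.42 ± 0.15 (SD, n = 4) for CDPs and 3.22 ± 0.08 and 3.43 ± 0.18 (SD, n = 4) for MDPs.

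**Figure D1:**
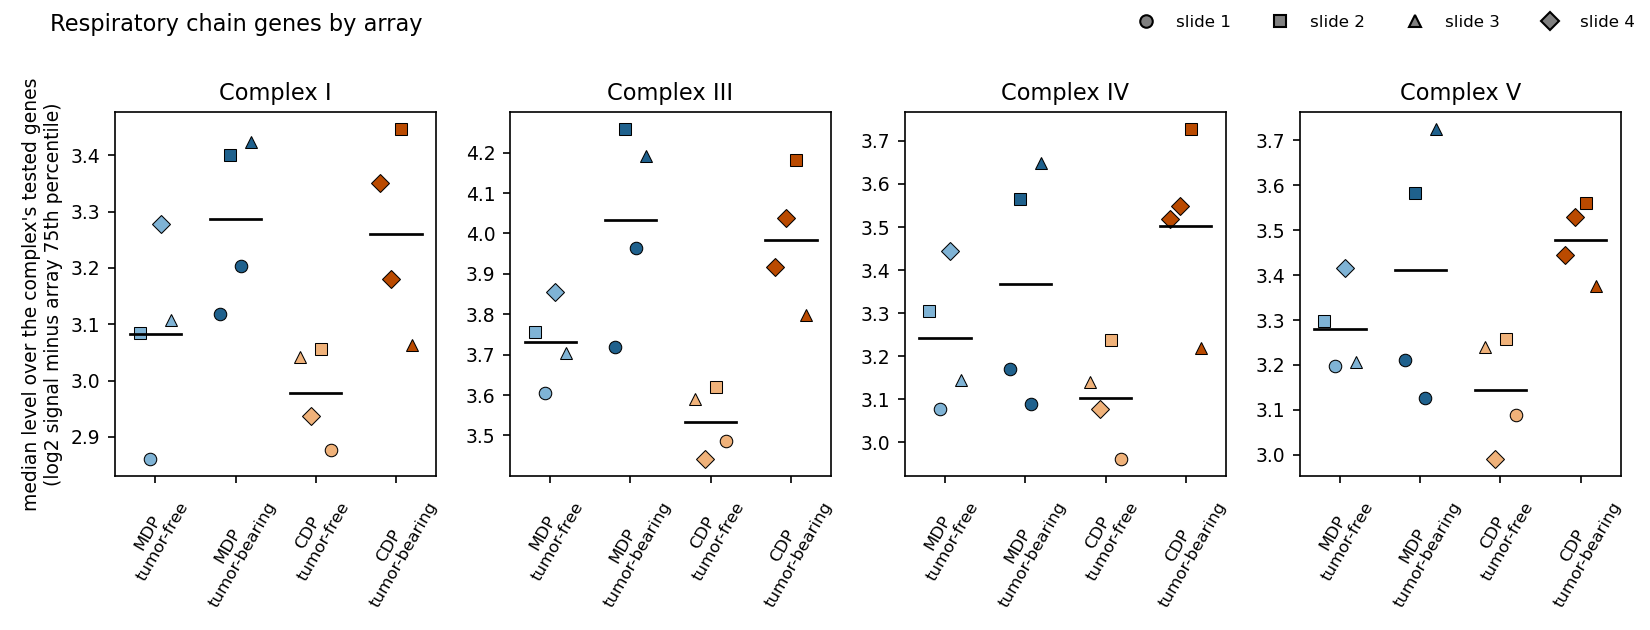
Median log2 level of the subunit genes of each complex on each array (y axis, relative to the 75th percentile of the array), by group on the x axis, with the marker shape giving the slide and a line the mean of the 4 arrays. For complex III, CDPs went from 3.53 ± 0.08 in tumor-free mice to 3.98 ± 0.16 in tumor-bearing mice (SD, n = 4), and MDPs from 3.73 ± 0.10 to 4.03 ± 0.25.

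In CDPs of tumor-bearing mice, against CDPs of tumor-free mice, 73 of the 79 tested subunit genes had a higher mean and 6 a lower mean. Of all 21902 gene names tested, 59.7% were higher in this comparison. The median difference of the subunit genes was 0.31, a fold of 1.24, with an interquartile range of 0.20 to 0.37, whereas the median over all genes was 0.09. The subunit genes were therefore higher by 0.21 relative to the genes as a whole. Differences of this size were close to the error of a single gene, since the median SE was 0.17.

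No subunit gene was called by limma in this comparison, against 0.836% of all genes called higher and 0.909% called lower. At an unadjusted limma p under 0.05, 24 were higher and 3 lower, against 6.72% and 6.59% of all genes. The groups did not overlap for 23 genes that were higher and for 1 that was lower, against 5.91% and 4.94% of all genes. The lowest FDR of a member was 0.0558. The methods' t-test (unadjusted p under 0.05 and fold above 1.5) called Ndufa8, Cox6a2 and Atp5s, and 0 genes after Benjamini-Hochberg adjustment. The unadjusted rule is looser than that of the study, whose gene list also required an FDR under 0.05. The share of all genes passing the unadjusted rule was not counted. In the fit with slide as a block the median was 0.24 against −0.05 for all genes, and 71 of 79 were higher against 43.4% of all genes. That fit called 1 gene, Ndufa8, against 2.21% of all genes called higher, and 3 genes, Ndufa8, Ndufa12 and Uqcrc1, had an FDR under 0.05, against 3.45%.

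The size of the CDP difference depended on how the arrays were scaled. After quantile normalization the median of the 79 genes was 0.08, with 58 higher, and in the authors' value table it was 0.08, also with 58 higher. The medians of complexes I, III, IV and V were then 0.13, 0.07, 0.06 and 0.05 after quantile normalization, against 0.32, 0.30, 0.27 and 0.29 here. Bright genes as a group were higher too: 3965 genes whose mean level lay in the range of the middle of the subunit genes had a median of 0.17, and 75.1% of them were higher, against 0.31 and 96.8% for the 63 subunit genes in the same range.

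The 4 complexes had similar medians in CDPs. All 37 genes with a complex I name were higher, 12 of them at an unadjusted limma p under 0.05, with a median of 0.32. All 8 complex III genes were higher (median 0.30), as were 12 of 16 complex IV genes (0.27) and 16 of 18 Atp5 genes (0.29). The slide block gave medians of 0.25, 0.27, 0.19 and 0.23. The complex IV genes were the most mixed, with 4 higher and 2 lower at an unadjusted p under 0.05, and the lower ones were tissue isoforms described below.

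Ndufa8, an accessory subunit of complex I that is imported into the intermembrane space, had the lowest p of the members and was chosen for description after its values were seen. Its probe lies at chr2:35891871-35891930 (mm9). Its level in CDPs of tumor-free mice was 0.72, 0.58, 0.98 and 0.50, and in CDPs of tumor-bearing mice 1.22, 1.38, 1.79 and 1.23. Every array of tumor-bearing mice was above every tumor-free array, and the difference was 0.71 (SE 0.17, 95% interval 0.34 to 1.09, a fold of 1.64, limma FDR 0.0558). Under the slide block the limma FDR was 0.0168, and after quantile normalization the difference was 0.67 with FDR 0.0489. In MDPs the levels were 1.27, 1.28, 1.16 and 0.97 without tumor and 1.09, 1.51, 1.15 and 1.60 with tumor. These overlapped, and the difference was 0.16 (limma FDR 0.693).

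Other members with low p values in CDPs, also picked after their values were seen, came from each complex. Uqcrc1, a core subunit of complex III, was at 3.54, 3.41, 3.66 and 3.44 in tumor-free CDPs and at 3.81, 3.81, 4.05 and 3.91 in tumor-bearing ones, with no overlap and a difference of 0.38 (SE 0.13, limma FDR 0.172, and 0.0498 under the slide block). Cox6b1, the common isoform of a complex IV subunit on the intermembrane side, was at 3.76, 3.54, 3.57 and 3.21 against 4.16, 3.96, 3.87 and 3.92, again without overlap, with a difference of 0.46 (FDR 0.172). Atp5b, the catalytic beta subunit of the ATP synthase, was at 3.32, 3.16, 3.40 and 3.35 against 3.67, 3.76, 3.80 and 3.55, a difference of 0.39 (SE 0.12, FDR 0.14). The pattern for these 3 genes was the same, with the 4 arrays of tumor-bearing mice above the 4 tumor-free arrays, and none passed the FDR threshold in the fit without the slide block. After quantile normalization the differences of Uqcrc1, Cox6b1 and Atp5b were 0.14, 0.22 and 0.15.

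The largest positive difference in each complex was often in a gene of uneven replicates. In complex I it was Ndufa4l2, a hypoxia-inducible relative of Ndufa4, at 1.24 (SE 0.93, limma FDR 0.658), but its probe was well above background on only 2 of 4 tumor-free and 3 of 4 tumor-bearing CDP arrays. In complex III it was Uqcr11, a small subunit, at 0.51 (FDR 0.24), with levels of 4.38, 4.08, 4.49 and 4.0 against 4.55, 4.87, 5.01 and 4.55. In complex IV it was Cox4i2, the oxygen-responsive lung isoform, at 0.94 (SE 0.52, FDR 0.482), and among the Atp5 genes Atp5g1, which encodes the c subunit of the membrane rotor, at 0.55 (FDR 0.43). Of these 4 genes, Uqcr11 alone had groups that did not overlap. The smallest difference in complex I was that of Ndufa7, at 0.00.

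**Figure D2:**
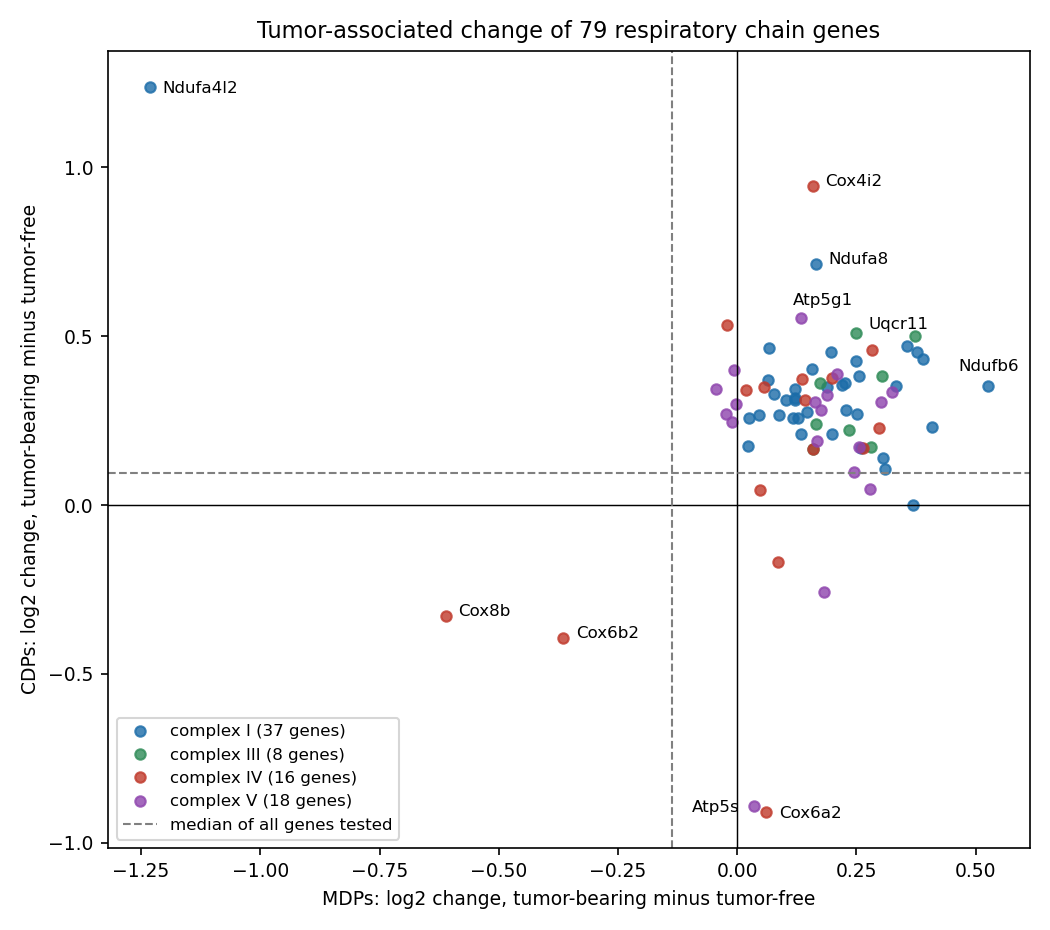
Difference between tumor-bearing and tumor-free mice of each of the 79 tested genes in MDPs (x axis, log2) and in CDPs (y axis, log2), colored by complex, with dashed lines at the medians of all genes (−0.14 and 0.09). Most points lie above both dashed lines, with Cox6a2 and Atp5s among those below the line for CDPs and Ndufa4l2 far from the others.

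In MDPs of tumor-bearing mice, 70 of the 79 genes were higher and 9 lower, although 38.1% of all genes were higher in this comparison. The median difference was 0.17, a fold of 1.12, with an interquartile range of 0.08 to 0.26, whereas all genes had a median of −0.14. Relative to the genes as a whole the subunit genes were higher by 0.30. The gap to genes of like brightness was smaller. Those 3965 genes had a median of 0.08, with 63.2% higher, against 0.19 and 90.5% for the 63 subunit genes in that range. With slide as a block the bright genes were at 0.13, with 74.4% higher, and those subunit genes at 0.22. The all-gene median moved with the scaling, from −0.11 over all probes here to 0.00 after quantile normalization, where 64 of 79 subunit genes were higher with a median of 0.13. When slide was a block, 75 were higher with a median of 0.22, against 47.1% of all genes.

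No subunit gene was called in MDPs by limma, and the lowest FDR was 0.328, against 0.0365% of all genes called in each direction. At an unadjusted limma p under 0.05, 10 were higher and 1 lower, against 3.81% and 6.46% of all genes. The groups did not overlap for 10 genes that were higher, against 2.78% of all genes, and for 0 that were lower, against 2.4%. The methods' t-test called 0 subunit genes, both with its fold and p threshold and after Benjamini-Hochberg adjustment, and its share of all genes was not counted. The medians were 0.19 for complex I (36 of 37 higher), 0.24 for complex III (8 of 8), 0.11 for complex IV (13 of 16) and 0.17 for the Atp5 genes (13 of 18). Single arrays moved these medians. Without replicate 3 of the tumor-free MDPs 57 of the 79 genes were higher, and complexes I and IV were at 0.11 and 0.01. Without replicate 3 of the tumor-bearing MDPs complex I was at 0.11. Complex IV was at 0.01 without replicate 5 of the tumor-bearing MDPs and at 0.17 to 0.19 without their replicate 2 or 4 or replicate 4 of the tumor-free MDPs.

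Ndufb6, an accessory subunit in the membrane arm of complex I, had the largest positive difference and the lowest p of the members in MDPs. Its level was 1.71, 2.19, 2.16 and 2.01 in tumor-free MDPs and 2.43, 2.37, 2.92 and 2.45 in tumor-bearing MDPs. The groups did not overlap, replicate 4 of the tumor-bearing mice stood above the other three, and the difference was 0.53 (SE 0.16, 95% interval 0.17 to 0.88, limma FDR 0.328). In CDPs its difference was 0.35 (FDR 0.365), also without overlap between groups. The largest negative difference in MDPs was that of Ndufa4l2, at −1.23 (FDR 0.616), which only 1 of the 8 MDP arrays, a tumor-free one, showed well above background.

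Several complex I genes were higher in both populations. Ndufs1, the largest core subunit, which holds iron-sulfur clusters, was at 1.48, 1.31, 1.56 and 1.42 in tumor-free MDPs and at 1.74, 1.80, 1.82 and 1.75 in tumor-bearing MDPs. In CDPs it went from 1.31, 1.31, 1.45 and 1.20 to 1.53, 1.57, 1.95 and 1.64. Neither pair of groups overlapped, and the differences were 0.33 (limma FDR 0.413) in MDPs and 0.35 (FDR 0.19) in CDPs. Ndufv1, the flavoprotein that binds NADH, was higher in MDPs by 0.41 without overlap (FDR 0.435) and in CDPs by 0.23 with overlap (FDR 0.624). Ndufa11, in the membrane arm, was higher by 0.39 in MDPs (FDR 0.451) and by 0.43 in CDPs (FDR 0.216).

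In complex III, Uqcrq, a small subunit next to cytochrome b, had the largest MDP difference at 0.37 (limma FDR 0.48), with 1 of the 4 tumor-bearing arrays at 3.76 and the others at 4.28 to 4.33. Among the other complexes the largest positive MDP differences were 0.30 for Cox6c (FDR 0.475), a subunit of complex IV, and 0.32 for Atp5d (FDR 0.466), the delta subunit of the ATP synthase stalk. Their CDP values were 0.23 and 0.34. The largest negative MDP difference of the Atp5 genes was −0.05 (FDR 0.904), for Atp5h, the d subunit of the stator, which was at 0.34 in CDPs (FDR 0.364).

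Tested as a difference of differences, the tumor effect in CDPs minus that in MDPs had no called member, against 0% of all genes called higher and 0.00913% called lower. The lowest limma FDR was 0.749, with 1 member higher and 1 lower at an unadjusted p under 0.05, against 2.15% and 1.74% of all genes. The median was 0.14, with 60 of 79 higher, but the median over all genes was 0.19, and 64.2% of them were higher. With slide as a block the median was −0.01, with 37 of 79 higher against 47.6% of all genes. Relative to all genes the median was thus −0.05, and its sign turned with the slide block. Ndufa8 had a difference of 0.55 (95% interval 0.02 to 1.08, limma FDR 0.749). The extremes by complex were Ndufa4l2 (2.47) and Ndufa7 (−0.37) in complex I, Uqcr11 (0.26) and Uqcrb (−0.11), which binds next to cytochrome b, in complex III, Cox4i2 (0.79) and Cox6a2 in complex IV, and Atp5g1 (0.42) and Atp5s (−0.93) among the Atp5 genes, none with an FDR under 0.05. The median over the 79 genes was between 0.05 and 0.09 without replicate 4 of the tumor-free MDPs, replicate 2 of the tumor-bearing MDPs, replicate 5 of the tumor-free CDPs or replicate 4 of the tumor-bearing CDPs.

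**Figure D3:**
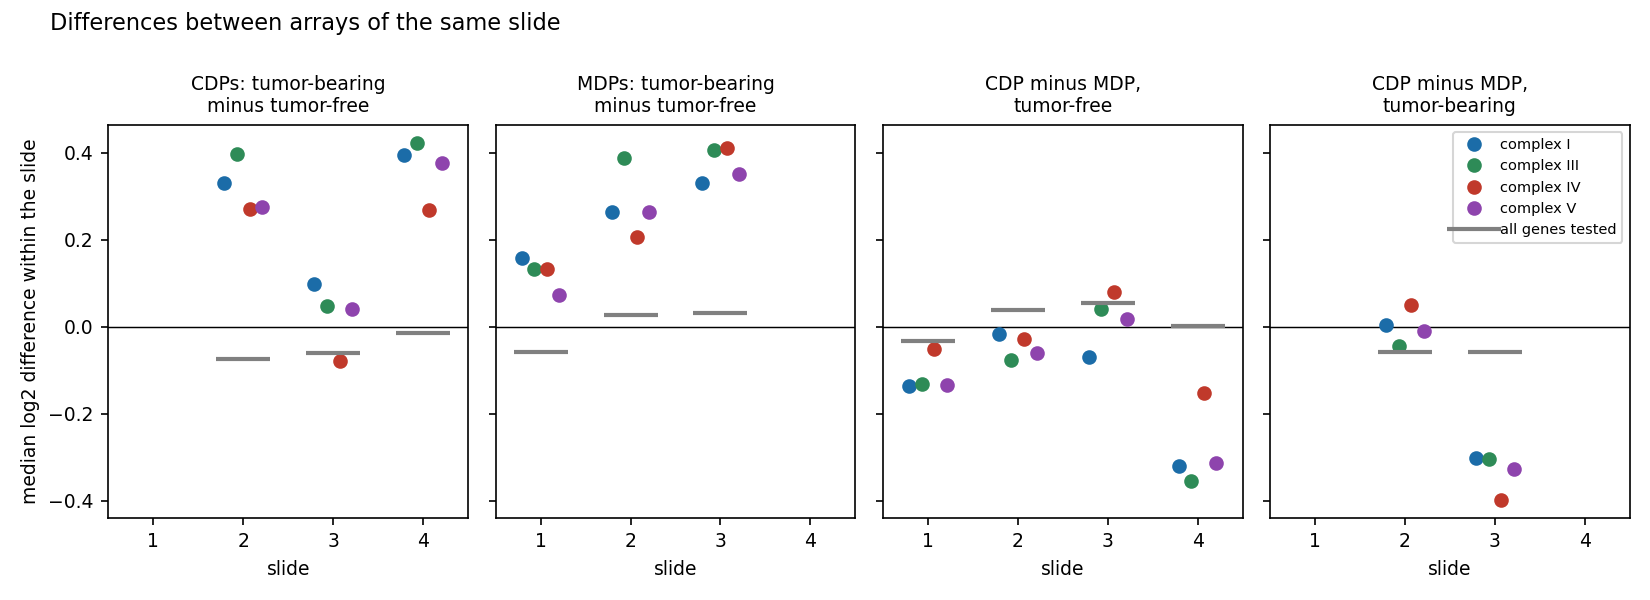
Median log2 difference of the subunit genes of each complex within each slide that holds both groups, with the median over all genes on the same slide, for the tumor comparison in CDPs and MDPs and for CDPs against MDPs without and with tumor. In the tumor comparisons the complex medians lay above that of all genes except for complex IV in CDPs on slide 3 (−0.08 against −0.06).

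Compared within a slide, where both arrays were processed on the same glass, CDPs of tumor-bearing mice had a median difference of 0.31 on slide 2 with 72 of 79 genes higher, 0.04 on slide 3 with 49 higher, and 0.38 on slide 4 with 72 higher. The medians over all genes were −0.07, −0.06 and −0.01. Slide 3 thus showed little of the CDP difference, with complex medians of 0.10, 0.05, −0.08 and 0.04 for I, III, IV and the Atp5 genes. In MDPs the medians were 0.14 on slide 1 (63 higher), 0.27 on slide 2 (72 higher) and 0.36 on slide 3 (75 higher), with all genes at −0.06, 0.03 and 0.03.

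Complex IV has subunits that exist as isoforms from separate genes, and these did not move together. Cox6a2, the heart and skeletal muscle isoform of subunit VIa, was lower in CDPs of tumor-bearing mice, against the direction of most members. Its probe at chr7:135349160-135349219 (mm9) was well above background on all arrays. Its level was −0.74, −0.78, −0.59 and −0.54 in tumor-free CDPs and −1.11, −1.98, −1.53 and −1.66 in tumor-bearing CDPs. All 4 arrays of tumor-bearing mice were below the tumor-free arrays, and the difference was −0.91 (SE 0.25, 95% interval −1.44 to −0.37, limma FDR 0.087). In MDPs its level was −1.17, −1.22, −1.15 and −0.39 without tumor and −0.71, −1.58, −0.68 and −0.72 with tumor, which overlapped (0.06, limma FDR 0.919). The difference between the populations was −0.97 (95% interval −1.72 to −0.21) and did not pass (limma FDR 0.749).

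The ubiquitous partner Cox6a1 went the other way in CDPs, from 4.05, 4.04, 4.19 and 3.78 to 4.34, 4.49, 4.39 and 4.33, a difference of 0.37 (limma FDR 0.289) without overlap. The pair Cox6b1 and Cox6b2 showed the same contrast. Cox6b2, known from testis, was at 2.39, 2.43, 2.52 and 2.11 in tumor-free CDPs and at 1.95, 1.95, 1.72 and 2.24 in tumor-bearing CDPs, and at 2.59, 2.42, 2.67 and 2.62 against 2.12, 2.64, 1.94 and 2.14 in MDPs. It was lower with tumor by −0.39 in CDPs (limma FDR 0.302) and by −0.36 in MDPs (FDR 0.478), with 1 array overlapping in each population.

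**Figure D4:**
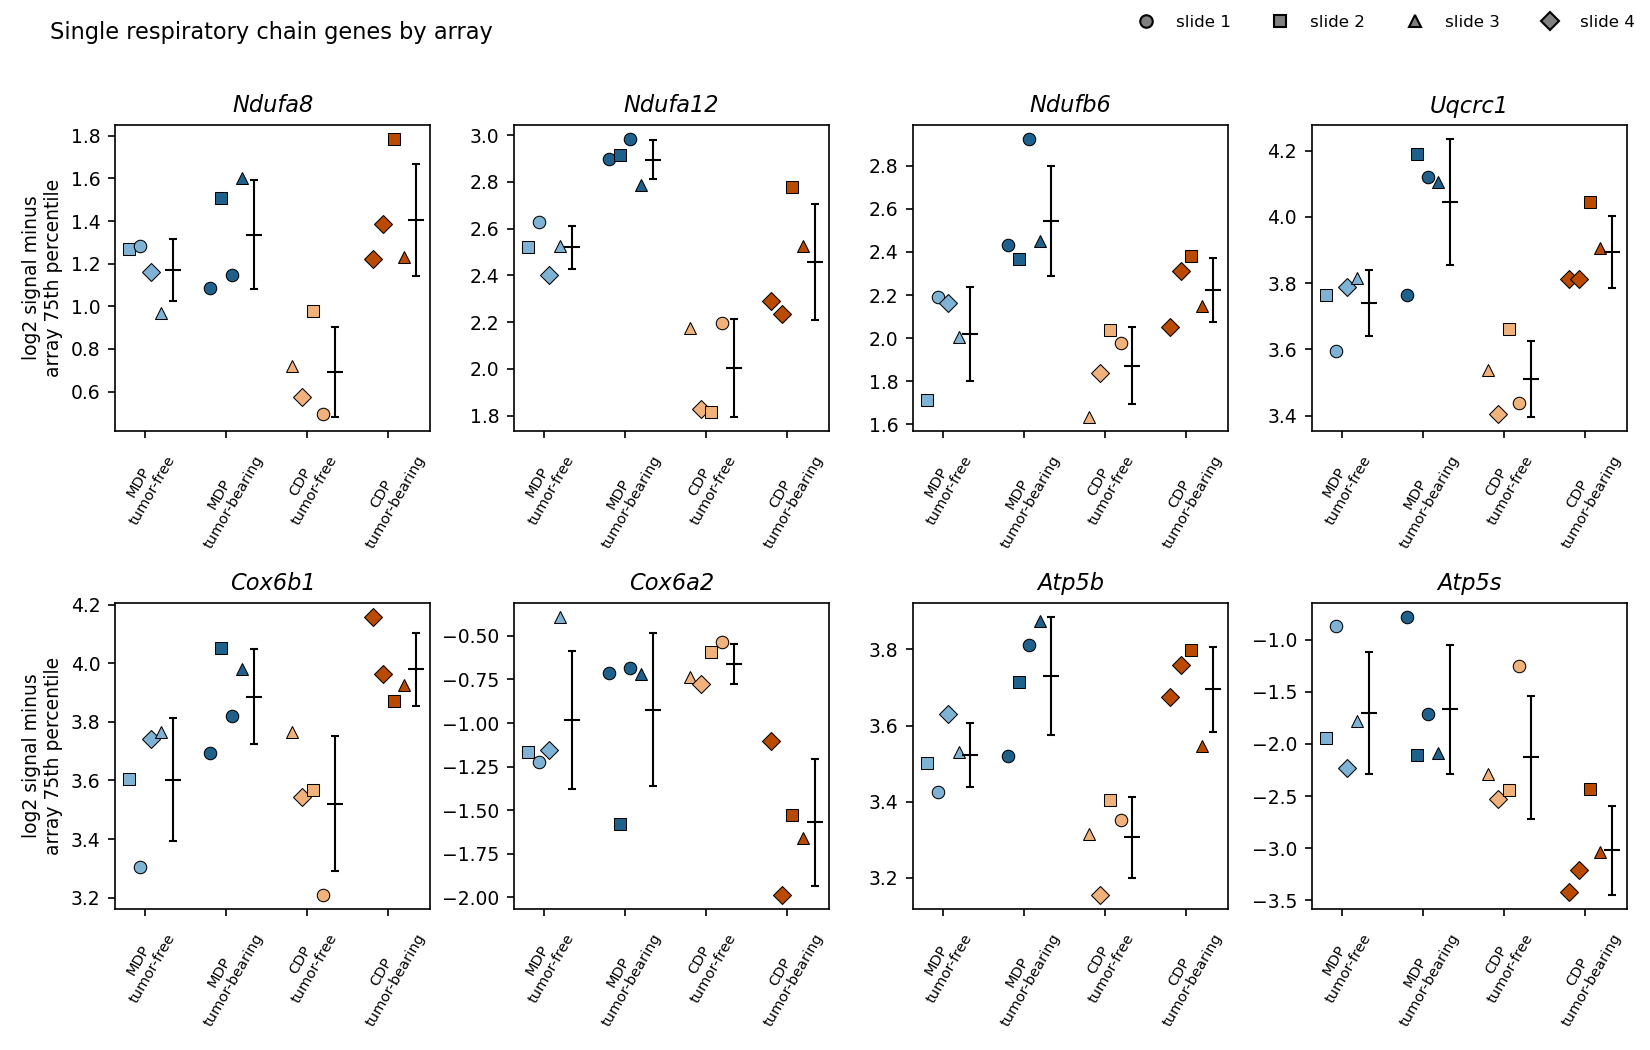
Level on each array (y axis, log2 relative to the 75th percentile of the array) of Ndufa8, Ndufa12, Ndufb6, Uqcrc1, Cox6b1, Cox6a2, Atp5b and Atp5s by group, with the bar at the mean and the error bar the SD of 4 arrays. Ndufa8 in CDPs lay at 0.50 to 0.98 in tumor-free and 1.22 to 1.79 in tumor-bearing mice, and Cox6a2 at −0.78 to −0.54 and −1.98 to −1.11.

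None of the remaining isoform genes passed the FDR threshold in either population. Cox4i1, the common isoform of subunit IV, was higher by 0.17 in CDPs (limma FDR 0.774) and 0.26 in MDPs (FDR 0.58). Cox7a1, the muscle isoform, was higher by 0.04 and 0.05, and its common partner Cox7a2 by 0.38 (FDR 0.273) and 0.20. Cox7a2l, a factor in joining complexes III and IV, was at −0.17 in CDPs and 0.09 in MDPs. Cox8a, the common isoform of subunit VIII, was higher by 0.34 in CDPs (FDR 0.448) and 0.02 in MDPs. Cox8b, the muscle isoform, was above background on 2, 2, 4 and 3 of 4 arrays of tumor-free MDPs, tumor-bearing MDPs, tumor-free CDPs and tumor-bearing CDPs, and its SE of 0.98 exceeded its tumor differences of −0.61 in MDPs and −0.33 in CDPs. The genes Atp5g1, Atp5g2 and Atp5g3 encode the same mature c subunit and were higher in CDPs by 0.55, 0.30 and 0.30 and in MDPs by 0.13, 0.00 and 0.16.

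Between the populations in tumor-free mice, a comparison balanced over all 4 slides, the subunit genes were lower in CDPs than in MDPs. The lower genes were 64 of 79, against 47.5% of all genes, with a median of −0.12 against 0.02. The 3965 genes of like brightness had a median of −0.04, with 43.4% higher, against −0.12 and 15.9% for the 63 subunit genes in that range. By limma 0 members were called, against 2.8% of all genes called higher and 3.14% lower. At an unadjusted p under 0.05, 0 were higher and 4 lower, against 7.79% and 8.78%, and the groups did not overlap for 3 genes that were lower and 0 that were higher, against 6.62% and 6.26%. The methods' t-test also called 0 members, and its share of all genes was not counted. The number of higher genes, 15, depended on single arrays: it ranged from 7 without replicate 2 to 31 without replicate 5 of the tumor-free CDPs, was 8 without replicate 4 of the same group, and was 25 without replicate 4 of the tumor-free MDPs. Within slides 1 to 4 the median was −0.12, −0.04, −0.03 and −0.30, so slide 4 showed most of it.

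Complex I and the Atp5 genes both had a median of −0.13 (32 of 37 and 14 of 18 lower), complex III −0.09 (8 of 8 lower) and complex IV −0.06 (10 of 16 lower). Without replicate 5 of the tumor-free CDPs the complex IV median turned to 0.05, with complex I at −0.07 and complex III at −0.14. Without replicate 4 of the tumor-free MDPs complex IV was at 0.01 and complex I at −0.07. Other arrays moved complex III between −0.14 and −0.05 and complex IV between −0.12 and −0.0045. Ndufa12, an accessory subunit of the complex I matrix arm chosen after its values were seen, had the lowest FDR. Its probe lies at chr10:93683562-93683621 (mm9). Its level was 2.52, 2.63, 2.40 and 2.53 in tumor-free MDPs and 2.18, 1.83, 1.82 and 2.19 in tumor-free CDPs. The groups did not overlap, and CDPs were lower by −0.52 (SE 0.15, limma FDR 0.0548, FDR 0.00805 with slide as a block). With slide as a block Ndufa8 (−0.48, FDR 0.0317) and Ndufa10 (−0.35, FDR 0.0304) also passed the FDR threshold, with a fold under 1.5, so that 3 members passed it, against 7.96% of all genes passing and lower. The largest positive differences by complex were 0.04 for Ndufa2, 0.91 for Cox8b (SE 0.98) and 0.20 for Atp5j2, and the most negative outside complex I were −0.32 for Uqcr11, −0.39 for Cox4i2 and −0.42 for Atp5s.

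Ndufa12 was higher with tumor in both populations. It was at 2.90, 2.92, 2.98 and 2.79 in tumor-bearing MDPs, a difference of 0.38 (limma FDR 0.433), and at 2.29, 2.24, 2.78 and 2.53 in tumor-bearing CDPs, a difference of 0.45 (FDR 0.155, FDR 0.0191 with slide as a block). In order of level, tumor-free CDPs were lowest, then tumor-bearing CDPs and tumor-free MDPs, whose arrays overlapped, then tumor-bearing MDPs, which lay above all others. Each of the 4 comparisons between groups that share a cell type or a tumor state was without overlap.

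In tumor-bearing mice, about as many subunit genes were higher as lower in CDPs against MDPs, 39 and 40, against 64% and 36% of all genes, and a median of −0.01. All genes had a median of 0.23 in this comparison. Over all probes that median was 0.19, and it was 0.00 after quantile normalization, where 17 of 79 subunit genes were higher. Relative to all genes, the subunit genes were lower in CDPs by −0.24, and with slide as a block 63 of 79 were lower with a median of −0.10, against 51.8% of all genes. The gap to genes of like brightness was smaller. Those 3965 genes had a median of 0.05, with 56.1% higher, against −0.01 and 46.0% for the 63 subunit genes in that range. With slide as a block the bright genes were at −0.08, with 37.9% higher, and those subunit genes at −0.10. The member called lower was Atp5s, 1 of 79, against 3.55% of all genes called lower and 3.47% called higher. At an unadjusted limma p under 0.05, 1 was higher and 6 lower, against 16.4% and 11.3%, and the groups did not overlap for 4 that were lower and 0 that were higher, against 6.68% and 6.99%. Within slides 2 and 3, the only ones with both groups, the medians were 0.00 with 41 higher and −0.32 with 3 higher.

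The extremes by complex were Ndufa4l2 (2.01, limma FDR 0.179) and Ndufa7 (−0.57, FDR 0.156), Uqcr10 (0.16, FDR 0.591) and Uqcrb (−0.21, FDR 0.279), Cox8b (1.20, FDR 0.387) and Cox6a2 (−0.65, FDR 0.126), and Atp5g2 (0.33, FDR 0.288) and Atp5s. Atp5s was the single one of these to pass the FDR threshold.

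Atp5s (Dmac2l), which is not a subunit of the ATP synthase despite its name, was at −0.78, −2.10, −1.71 and −2.09 in tumor-bearing MDPs and at −3.42, −3.20, −2.43 and −3.03 in tumor-bearing CDPs. The groups did not overlap, and CDPs were lower by −1.35 (SE 0.38, limma FDR 0.0441). Under the slide block the difference was −0.67 (FDR 0.0982) and was not called. Leaving out replicate 2, 3 or 5 of the tumor-bearing CDPs, or replicate 2 or 4 of the tumor-bearing MDPs, also ended the call. Ndufa4, a subunit bound to complex IV despite its complex I name, was at 3.65, 3.41, 3.62 and 3.37 in tumor-bearing MDPs and at 3.22, 3.03, 3.19 and 2.85 in tumor-bearing CDPs, which did not overlap, with a difference of −0.44 (FDR 0.0563). In tumor-free mice it was at 3.21, 3.15, 3.28 and 3.16 in MDPs and at 2.97, 2.76, 2.98 and 3.15 in CDPs, where the nearest arrays of the groups all but met, with a difference of −0.24 (FDR 0.423).

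Other mitochondrial gene lists were compared by their counts, without quantile normalization and without genes of like brightness beside them. The mitochondrial ribosome, which translates the subunits encoded in mitochondrial DNA, had 72 of 76 tested genes higher with tumor in CDPs, with a median of 0.32, and 74 of 76 in MDPs, with a median of 0.30. Of all genes, 59.7% were higher with tumor in CDPs and 38.1% in MDPs. Mrps28 (0.84, limma FDR 0.0181) and Mrps35 (0.84, FDR 0.00508), proteins of the small ribosomal subunit, were called higher in CDPs, 2 of 76 against 0.836% of all genes. In tumor-free mice 69 of the 76 were lower in CDPs than in MDPs with a median of −0.32, of which 6 were called lower, against 47.5% of all genes lower and 3.14% called lower, with Mrps35 at −0.95 (FDR 0.000477) and Mrps5 at −0.85 (FDR 0.0107) among them. These medians between populations lay further from 0 than that of the respiratory subunits (−0.12).

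Assembly factors, which build the complexes but are not part of them, were higher with tumor for 35 of 40 in each population. Of all genes, 59.7% were higher in CDPs and 38.1% in MDPs. The medians of the assembly factors were 0.23 in CDPs and 0.18 in MDPs. In tumor-free mice 37 of 40 were lower in CDPs with a median of −0.35. Bcs1l (−0.81, limma FDR 0.0312), needed for complex III, Sco2 (−0.71, FDR 0.0172), a copper carrier for complex IV, and Lrpprc (−0.61, FDR 0.00778), which stabilizes mitochondrial mRNAs, were called lower, 3 of 40 against 3.14% of all genes. In tumor-bearing mice 30 of 40 were lower, against 36% of all genes, and the complex I factors Ndufaf1 (−0.82, FDR 0.0476), Ndufaf2 (−1.03, FDR 0.00203), Ndufaf4 (−1.27, FDR 0.0403) and Ndufaf6 (−1.01, FDR 0.0483) were called, 4 of 40 against 3.55% of all genes. With slide as a block 2 assembly factors were called lower in this comparison.

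The tricarboxylic acid cycle had 16 of 18 genes higher with tumor in CDPs and 16 of 18 in MDPs, with a median of 0.21 in each. For this list and those that follow, 59.7% of all genes were higher in CDPs and 38.1% in MDPs. In tumor-bearing mice the cycle gene Suclg2, a succinyl-CoA ligase subunit, was called lower in CDPs than in MDPs (−1.63, limma FDR 0.0189), 1 of 18 against 3.55% of all genes. Complex II, succinate dehydrogenase with its assembly factors, had 4 of 6 higher in CDPs and 6 of 6 in MDPs, with medians of 0.26 and 0.24. Cytochrome c and the carriers had 9 of 12 higher in CDPs and 10 of 12 in MDPs, with medians of 0.25 and 0.18. Of the antioxidant enzymes, 9 of 11 were higher in CDPs and 8 of 11 in MDPs. Prdx3, a peroxidase of the mitochondrial matrix, was called higher in CDPs at 0.63 (limma FDR 0.0262), 1 of 11 against 0.836% of all genes. The genes for mitochondrial DNA expression, which include the regulators Nrf1, Gabpa, Yy1 and Tfam, had 10 of 20 higher in CDPs with a median of 0.04, and in MDPs 14 of 20 were higher with a median of 0.19.

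**Figure D5:**
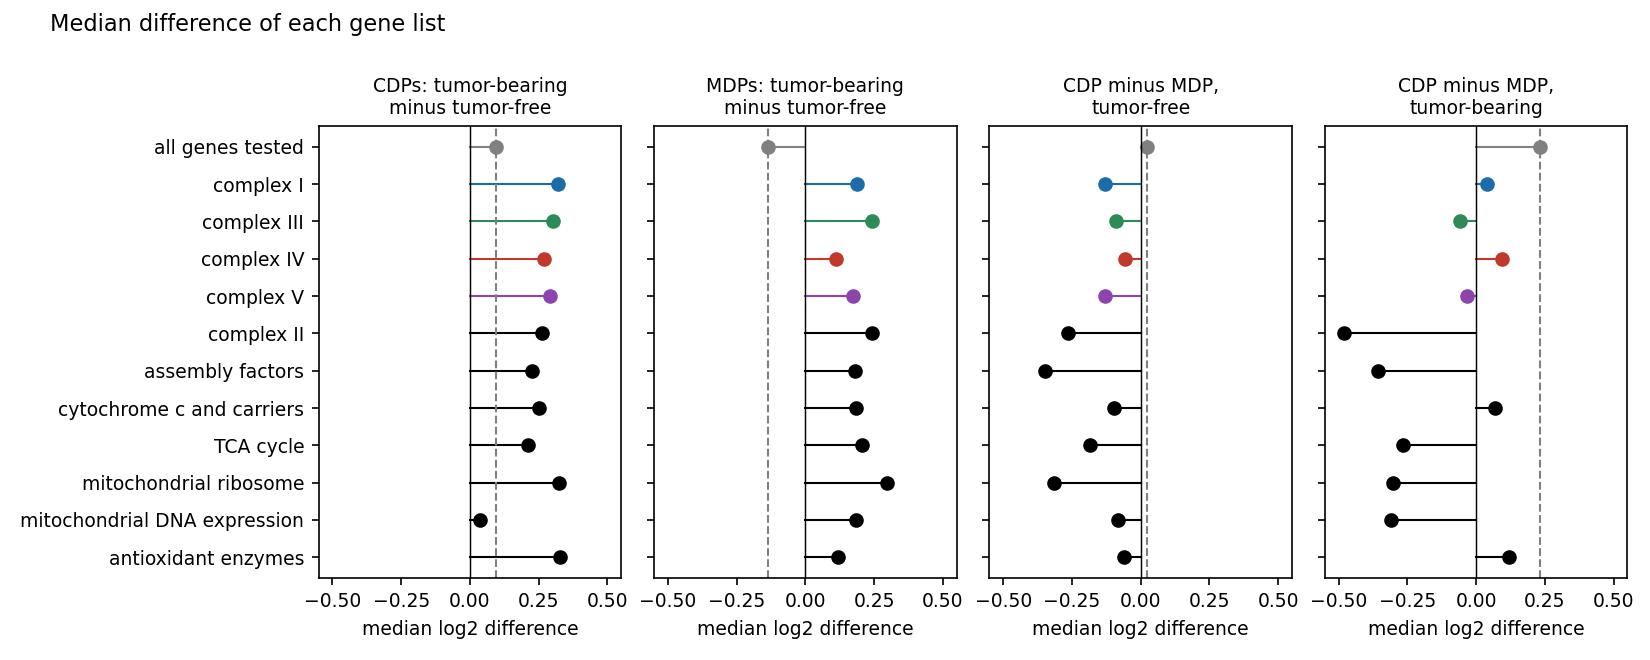
Median log2 difference of each gene list (complexes I, III, IV and the Atp5 genes, complex II and 6 other mitochondrial lists) and of all genes tested, for the tumor comparison in CDPs and in MDPs and for CDPs against MDPs without and with tumor. In tumor-free mice the mitochondrial ribosome (−0.32) and the assembly factors (−0.35) lay further below 0 than the 4 groups of subunit genes (−0.13 to −0.06).

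Some marker sums also differed between the groups in which the subunit genes differed, and others overlapped. The summed linear level of 6 neutrophil markers was 22.9 to 29.5 in tumor-free CDPs and 36.3 to 52.0 in tumor-bearing CDPs. In MDPs it was 49.0 to 69.7 and 47.4 to 76.5. Of these markers 3 of 6 were higher in CDPs. Elane, a granule protease of early granulocytes, was called at 1.12 (limma FDR 0.0227), 1 of 6 against 0.836% of all genes. The sum of the 4 progenitor markers was 33.1 to 37.7 in tumor-free and 23.9 to 28.0 in tumor-bearing CDPs, all 4 lower. Kit was called at −1.34 (FDR 0.00441), 1 of 4 against 0.909% of all genes called lower. The 3 monocyte and macrophage markers were at 3.76 to 4.91 and 5.06 to 7.31 in CDPs and all 3 were higher. Erythroid markers were lower with tumor for 5 of 5 tested genes in both populations, at 2.59 to 10.9 against 1.75 to 4.02 in CDPs and 2.17 to 5.26 against 1.83 to 2.25 in MDPs. Megakaryocyte markers were lower with tumor for 2 of 2 tested genes in both populations, with sums of 0.57 to 2.29 against 0.33 to 1.12 in CDPs and 0.59 to 1.12 against 0.34 to 0.61 in MDPs. Between tumor-free CDPs and MDPs, Elane (−1.85, FDR 0.000216) and Klf1, an erythroid factor (−2.77, FDR 0.0183), were called lower in CDPs. Their lists were mixed, with 4 of 6 neutrophil and 2 of 5 erythroid markers higher in CDPs. Ccr2, a monocyte receptor, was called higher (FDR 0.00384), and all 3 monocyte and macrophage markers were higher. Of all genes, 3.14% were called lower and 2.8% higher. Mammary tumor cell markers were at 0.62 to 1.61 in every group. B cell markers overlapped, at 6.30 to 8.38 in tumor-free and 6.40 to 7.94 in tumor-bearing CDPs, and 6.87 to 9.68 and 6.49 to 9.85 in MDPs. T and NK cell markers also overlapped, at 0.22 to 0.78 and 0.44 to 0.79 in CDPs and 0.28 to 0.71 and 0.19 to 0.61 in MDPs. The part of these markers in the subunit differences was not tested.

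The choice of probe had little influence on the CDP counts and more on the MDP counts. Of the 30 probes not chosen for their gene, 28 were higher with tumor in CDPs and 22 in MDPs. Of the 109 probes, 101 were higher with tumor in CDPs and 92 in MDPs. Of the 21 genes with several tested probes, 19 had all probes higher in CDPs and 2 had probes that differed in sign. In MDPs 14 had all probes higher and 6 differed in sign. Over the 63 tested genes whose probe was listed on the gene's own chromosome, the medians were 0.32 in CDPs and 0.17 in MDPs, and the 9 genes with a probe listed elsewhere had medians of 0.25 and 0.14.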

How the data were processed

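Bone marrow was depleted of lineage-positive cells, MDPs and CDPs were sorted, and Cy5-labeled cRNA of 16 samples was hybridized to 1 array each. The deposited spot tables of Agilent Feature Extraction 11.5.1.1 hold a processed intensity that the authors' software corrected for background and detrended within the array, without scaling between arrays. They also hold the uncorrected mean and background intensities and yes-or-no flags on spot quality and detection. A further deposited table gives log2 signals of 26793 probes, in which each of the 16 columns matched its own array best (lowest r 0.994). The processing notes name limma, how those probes were selected is not given in the sources used here, and the table served as an alternative. Probe positions are those of the files, on mm9.

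After removing control spots and 182 to 289 outlier spots an array, the log2 processed intensity was scaled by subtracting the 75th percentile of its array, and spots of a probe were averaged. A probe was tested if 3 or more arrays of any group had it well above background, using limma 3.58.1 (R 4.3.3, data.table, version 1.17.8) over the 4 group means, with Benjamini-Hochberg adjustment over 27433 probes, and the scripts were tested on simulated data. Figures used matplotlib 3.10.9 (python 3.11.15). Groups and replicate numbers follow the sample titles. The members and gene lists were chosen with earlier results of these data known. Genes were named where called, where they had the most positive or negative difference of a complex in a comparison, where they were isoform genes, where their probes were among the 3 brightest or dimmest, or, for the other lists, where called. Ndufa8, Ndufa12, Ndufs1, Ndufv1, Ndufa10, Ndufa11, Ndufa4, Uqcrc1, Cox6b1 and Atp5b were named after their values were seen. The study describes each sample as a pool of a pair of mice, and the number of arrays limits the precision. Alternatives were quantile normalization, median centring, normexp with an offset of 50, the value table, other probe filters and probe rules, slide or replicate number as a block, only the compared groups, no minimum fold, the methods' unpaired t-test, and leaving out each array.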

Additional observations from a re-analysis of the deposited data

Results flagged for a closer look

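Among 60 groups of 4 values tested, 4 held an array far from the other three, where chance flags about 1 in 20 groups. Cox6a2 stood apart in MDPs in both groups. Its level was −0.39 in replicate 5 of the tumor-free mice, against −1.15 for the nearest array, and −1.58 in replicate 3 of the tumor-bearing mice, against −0.72 for the nearest. Uqcrq was at 3.76 in replicate 2 of the tumor-bearing MDPs, against 4.28 for the nearest array. Ndufb6 was at 2.92 in replicate 4 of the tumor-bearing MDPs, against 2.45 for the nearest, and its MDP difference was 0.39 without that array, against 0.53 with it.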

How the results depend on the processing

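Direction held best for the tumor comparisons. In no alternative fit did fewer than 57 subunit genes, of the 63 to 79 tested by setting, come out higher in CDPs or MDPs. Within slide 3 alone, 49 of 79 were higher in CDPs. The size in CDPs did not hold. After quantile normalization the medians of complexes I, III, IV and V were 0.13, 0.068, 0.064 and 0.054 and 1 gene was called, the CDP minus MDP difference had 31 genes higher with medians of −0.13 for complex III and −0.044 for complex IV, and in tumor-bearing mice 17 genes were higher in CDPs with a complex III median of −0.30. With the authors' value table the CDP medians were 0.14, 0.069, 0.064 and 0.056, the difference had 34 genes higher with −0.12 for complex III and −0.039 for complex IV, and in tumor-bearing mice 18 were higher, 0 called, with −0.29 for complex III. With slide as a block 1 gene was called in CDPs, the difference had 37 genes higher with −0.072 for complex IV, and in tumor-bearing mice 16 were higher and 0 called. Restricting to probes above background on all 16 arrays also called 1 gene in CDPs, and this gene was Ndufa8 in each of these 3 settings. Median centring left 9 genes higher in tumor-free mice and normexp 23. Both called 0 genes in tumor-bearing mice, as did testing all probes, only the compared groups and the replicate number as a block. Leaving out the 3 Atp5 names that are not subunits also gave 0, which was fixed in advance because Atp5s is among them.

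The methods' t-test with fold and unadjusted p called 3 genes in CDPs and 2 in tumor-bearing mice (Ndufa4l2 and Atp5s), and 0 after adjustment. The shares of all genes passing the unadjusted rule were not counted. Leaving out slide 1 or slide 4 was added after seeing the data. Leaving out the 3 Atp5 names that are not subunits, and keeping only probes on the gene's own chromosome, was not planned beforehand either. Without slide 1 the difference had 34 genes higher with −0.034 for complex I, and in tumor-bearing mice 9 were higher, 0 called, with −0.15 for complex I. Without slide 4, 29 genes were higher in tumor-free mice and 0 were called in tumor-bearing mice. Leaving out single arrays gave 0 to 0 called genes in CDPs, MDPs, the difference and tumor-free mice, and 0 to 2 in tumor-bearing mice, where Cox6a2 joined Atp5s without replicate 3 of the MDPs. The genes higher in tumor-free mice ranged from 7 to 31. The cause of these shifts was not tested.

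The sample titles state no pairing by replicate number, and none was assumed. In their deviations per probe, not their levels, same-numbered samples correlated at −0.70 to 0.48. Of these pairs 8 of 24 were over 0.1, against 31 of 72 for other-numbered samples and 19 of 22 for samples of the same slide. The pairs include tumor-free with tumor-bearing mice. They cannot show whether MDPs and CDPs of the same number came from the same mice. The replicate block ended the call of Atp5s and made no other. Signal over background limits Ndufa4l2 and Cox8b, which some arrays did not measure, and Cox7b2 and Cox8c, which none did.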
